A study of Mus musculus with 36 samples.

Results

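Ribosome protected fragments (RPFs) from the pellet of wild-type (WT) brain were compared between a standard nuclease preparation and a low nuclease preparation. These libraries were chosen by their labels, and they are 6 of the 36 samples of the series, 3 for each preparation. All 6 came from C57BL/6 mice that were 5 days old, with the brains of 10 animals pooled for each preparation, so that a library is an average over animals. The homogenate was run through a sucrose gradient, and the pellet, taken as the RNA granule fraction, was digested with RNase I. The labels give the treatments only as M-protocol and control. From the study's methods these were taken to be the standard preparation, digested with 10 mM MgCl2, and the low nuclease preparation, digested with 2.5 mM. Nuclease and magnesium therefore changed together. The study's methods also give a different source, dosing and temperature of the nuclease and a different recovery of the digested ribosomes, and the 3 libraries of a preparation were pooled for reverse transcription. None of these can be told apart from the others in this comparison. The rest of the series holds the pellet of FMR1 KO mice, fraction 5/6 of the gradient (the polysomes) and RNA from whole brain homogenate, made with either preparation.

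Neuronal RNA granules are dense clusters of ribosomes that have stopped during elongation and are thought to carry mRNAs along dendrites and axons. RNase I cuts the mRNA between ribosomes, and the stretch shielded by each ribosome is sequenced, so the count of a gene follows how many of its ribosomes were recovered and how well their fragments survived. Ribosomes that make secreted or membrane proteins are held at the endoplasmic reticulum (ER) through a hydrophobic stretch of the growing chain, while ribosomes that make cytosolic proteins are free. In whole brain material, fewer cells of a type and less RNA per cell cannot be told apart.

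The first question was how the counts were divided among genes, since Cdk8, which encodes a kinase of the Mediator complex, took a large part of them, as the reads were assigned. Cdk8 (ENSMUSG00000029635, GRCm38 chr5:146231230-146302874, plus strand) held 47.0%, 43.7% and 45.6% of all gene counts in the standard libraries and 5.31%, 4.69% and 4.00% in the low nuclease libraries. Its share was thus 9.74-fold higher in the standard preparation (45.5% ± 1.69 against 4.67% ± 0.659, SD, n = 3 each, exact permutation test, two-sided p = 0.1). With 3 libraries against 3, this test cannot give a p below 0.1. In RNA of whole WT brain Cdk8 had 0.00564% to 0.00903% in the standard libraries and 0.0241%, 9.22% and 0.00566% in the low nuclease libraries. The origin of the reads counted on Cdk8, and on Cmss1 and Filip1l below, could not be established here, and they were not compared with ribosomal RNA, so that these shares are of reads assigned to the genes. Total counts were 21710393 to 40174168 in the standard libraries and 23634940 to 44696473 in the low nuclease libraries. Without Cdk8, 21274803, 12227341 and 11922190 counts were left in the standard libraries and 22378936, 42602057 and 35724734 in the low nuclease libraries. The standard group therefore had the lower depth for all other genes, and 15824 to 16122 genes had a count in each of its libraries against 16451 to 16534 in the others.

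After Cdk8, the genes with the largest shares split in both directions. Cmss1 and Filip1l lie on opposite strands of chromosome 16 and overlap over 220034 bp, and their counts were at least 99.1% alike in every library, so they cannot be told apart. Cmss1 held 3.32%, 3.73% and 2.67% of the counts in the standard libraries and 0.171%, 0.102% and 0.264% in the low nuclease libraries. Ubtf, a transcription factor of ribosomal RNA genes, went the opposite way and had 0.00797%, 0.00929% and 0.00787% in the standard against 1.46%, 1.35% and 0.0971% in the low nuclease libraries. The high values of Kif13a, a kinesin, and of Rbm24, which lies 317991 bp away, were those of 1 library, and their counts were 97.1% to 99.8% alike in the standard libraries, so that they may be one measurement. Kif13a had 0.135% and 0.211% in standard replicates 1 and 2 but 3.23% in replicate 3, against 0.0869% to 0.103% in the low nuclease libraries, and its log2 fold change of CPM was 5.09 with all libraries (edgeR adjusted p = 0.033) and 2.17 without standard replicate 3, with an adjusted p of 0.098 without low replicate 1. Itga9, an integrin, was likewise at 0.0834% and 0.0786% in 2 standard libraries and at 0.703% in replicate 3. The housekeeping genes Actb and Tubb5 had lower shares in the standard libraries, where Cdk8 held the most counts. They were not called in the fit without Cdk8 and with TMM scaling (described below). With Cdk8 kept in that fit, 122 of 123 named genes had the same direction and call. None of the 12 largest shares overlapped between the preparations, but the totals include Cdk8, and how many of all genes did so was not counted. By CPM without Cdk8, defined below, the libraries of Actb, Tubb5 and Itga9 overlapped. The 11 genes after Cdk8 together took 8.13%, 9.19% and 13.6% against 6.77%, 9.69% and 7.27% (exact permutation p = 0.3). When Cdk8 was left out, the 10 largest genes of each library took 26.2% ± 2.83 of the counts in the standard and 11.4% ± 1.66 in the low nuclease libraries (SD, n = 3 each, exact permutation p = 0.1).

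**Figure D1:**
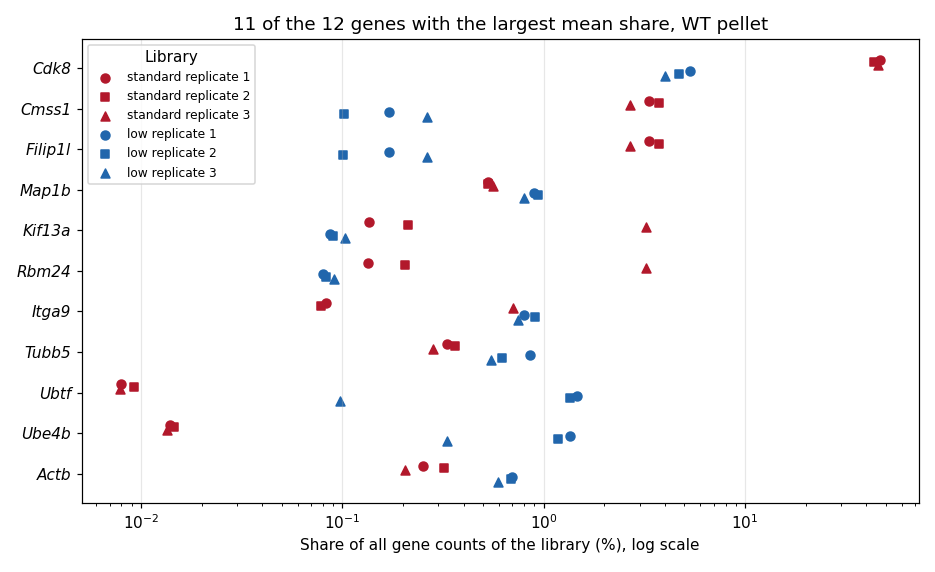
Share of all gene counts (%, log axis) of 11 of the 12 genes with the largest mean share, with one point for each of the 6 WT pellet libraries, in red for the standard and blue for the low nuclease preparation. Cdk8 stands at 43.7% to 47.0% in red and at 4.00% to 5.31% in blue, and the single red points of Kif13a and Rbm24 above 3% belong to standard replicate 3.

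Cdk8 was then left out, and the protein-coding genes were scaled with TMM factors and compared with edgeR's quasi-likelihood test. Levels are given as CPM, which is the count scaled by the library's total over the genes tested times its TMM factor. These factors were 0.776 to 0.912 in the standard and 1.16 to 1.28 in the low nuclease libraries. The libraries therefore have no common total of CPM, and all levels in CPM carry the TMM scaling. A log2 fold change is the standard over the low nuclease preparation. It is given with its standard error (SE) and the Benjamini-Hochberg adjusted p over all genes tested. Of 14557 genes, 5679 (39%) passed an adjusted p of 0.05, 2185 (15%) higher and 3494 (24%) lower in the standard preparation. The median change was -0.04. Falls were larger than rises, since 2567 of the lower genes changed at least 2-fold and only 334 of the higher ones did. At 4-fold the numbers were 593 and 188. The 3 libraries of the preparations did not overlap for 55.3% of the genes, of which 3435 (23.6% of all) were higher and 4618 (31.7%) lower. The split depended on scaling. With library size alone all genes shifted by -0.52, and 294 were called higher and 7161 lower, so that changes of lists are given below beside the median of all genes. Calls also depended on single libraries. Without standard replicate 1, low replicate 1 and low replicate 3, 2441, 3191 and 3127 genes were called, of which 2382, 3124 and 3061 were among the 5679, with 902 to 951 higher and 1539 to 2279 lower. Without standard replicate 2, 4107 were called, 2279 of them lower, and 3803 were among the 5679. Libraries of the same preparation correlated at Spearman 0.962 to 0.976 over genes and those of different preparations at 0.885 to 0.927. The labels do not say beyond a replicate number that preparations were independent, and the p-values measure the spread between these libraries.

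Several of the largest rises were in genes that had almost no counts in the low nuclease libraries. Whether the reads counted on these genes came from their own ribosomes was not tested. Mroh6 had 269408, 177514 and 125194 counts in the standard libraries against 1, 9 and 4 (log2 fold change 16.99, SE 0.75, adjusted p = 0.00026). In the standard libraries of WT whole-brain RNA it had 4, 2 and 6 counts. Fam83h, 112322 bp away on the same strand, had 99.2% to 99.6% of the counts of Mroh6 in the standard libraries, so that these may not be separate measurements. Tmem247 had 14950, 3851 and 7781 counts and none in the low nuclease libraries, which is at least 28012-fold higher against a floor of 3 counts over the group. The rule that named the largest rises asked for libraries that did not overlap, so that their separation was fixed by the choice. Pou3f2, a transcription factor of neural progenitors, is a gene without introns, and it had 10598, 15507 and 10988 CPM in the standard and 37.9, 38.3 and 31.7 CPM in the low nuclease libraries (log2 fold change 8.43, SE 0.33, adjusted p = 0.00026). Harbi1, a gene derived from a transposase, was at 5872, 3044 and 5573 CPM against 7.70, 6.87 and 8.72 CPM (log2 fold change 9.28, SE 0.41, adjusted p = 0.00026). Creb3l1, 260782 bp from it, had counts 94.8% to 96.7% alike with those of Harbi1 in the standard libraries, so that these may not be separate measurements either. The transcription factors Sall4, Foxa2 and Creb3l1 also rose, and these 3 calls held without any single library. Foxa2 had 37.0, 409 and 456 CPM in the standard libraries, a wide range that did not reach the 0.65 to 0.72 CPM of the low nuclease libraries. Gnb1l and Nphs1 rested on fewer libraries. Nphs1, a component of the kidney filter, had 492 CPM in standard replicate 1 but 1.71 and 19.4 CPM in the other two, and its adjusted p rose from 0.031 to 0.093 without low replicate 3. Gnb1l had 60.65 CPM in standard replicate 2 and 9631 or more in the other libraries of the group, and its adjusted p was 0.059 without low replicate 1. For Atoh8, a further transcription factor, it was 0.057 without the same library.

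Several of the largest falls were in genes near 0 counts in the standard preparation, and the origin of their low nuclease reads was not tested either. The unnamed gene 1810046K07Rik had 0.17, 0.09 and 0.43 CPM in the standard and 166, 162 and 125 CPM in the low nuclease libraries (log2 fold change -9.42, SE 0.40, adjusted p = 0.00026). In these libraries its counts were 97.3% to 98.9% alike with those of Btg4, which lies 169810 bp away. Pamr1, a secreted protease-like protein, was at 1.16, 0.99 and 2.28 CPM against 601, 447 and 450 CPM (log2 fold change -8.42, SE 0.41, adjusted p = 0.00034). Eva1b, a membrane protein, was at 0.46, 1.08 and 0.76 CPM against 270, 510 and 243 CPM (log2 fold change -8.82, SE 0.52, adjusted p = 0.00051). The calls of these 3 genes held without any single library, while the separation of their libraries was part of the rule that named them. Hoxa9, a homeobox factor of the body axis, had 2, 1 and 1 counts in the standard libraries and 16309, 23112 and 104 in the low nuclease libraries. Hoxa4, 31346 bp from it on the same strand, had counts so alike that the smaller was at least 84.6% of the larger in each low nuclease library, and these may not be separate measurements. Without standard replicate 1 the adjusted p was 0.054 for Hoxa9 and 0.061 for Hoxa4. Ust, a sulfotransferase, was high in 1 low nuclease library (3193 CPM against 8.03 and 11.95 CPM), and its change was -2.24 without that library. The calls of Ust, Ggn, BC025920 and B4galt5 were lost without standard replicate 1 (adjusted p = 0.123, 0.112, 0.076 and 0.066), and that of Ntn5 without standard replicate 2 (adjusted p = 0.056). Ntn5 and Sec1 overlap over 10381 bp on opposite strands and shared their counts in the low nuclease libraries.

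The genes for membrane and secreted proteins stood lower in the standard preparation, and this was seen in each list of that kind, also with library size alone (medians of -1.69 to -2.22). Among voltage-gated channels, 25 of 29 fell and 0 rose, where 24% of all genes tested fell, with a median log2 fold change of -1.67 beside -0.04 for all genes. Among glutamate and GABA receptors, 21 of 26 fell and 0 rose (median -1.50). For the ER translocation and folding proteins, 19 of 31 fell and 1 rose (median -1.21), and for the collagens, laminins and matrix proteins 18 of 33 fell and 0 rose (median -1.16). The summed level of the receptors was 499, 427 and 897 CPM in the standard and 2279, 2273 and 2937 CPM in the low nuclease libraries, and that of the ER list was 687, 671 and 1163 CPM against 1353, 1385 and 1921 CPM. Standard replicate 3 was the highest library of its preparation in both, and it stayed below the low nuclease libraries. These counts moved when a library was left out. The channels fell to 12 without standard replicate 1. The receptors fell to 11 without standard replicate 1 and to 12 without standard replicate 2. The ER list fell to 1, 5, 7 and 6 without standard replicates 1 and 2 and low replicates 1 and 3, and the matrix list to 8, 9, 10 and 10. In these fits 1539 of 14902, 2279 of 14897, 2279 of 14707 and 2176 of 14675 genes were lower. The share of the ER list was thus below that of all genes without standard replicate 1 and near it without standard replicate 2. The libraries of the preparations did not overlap, with the standard ones lower, for 26 channels, 24 receptors, 22 ER genes and 23 matrix genes, beside 31.7% of all genes.

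Grin2d, an NMDA receptor subunit, was at 12.8, 11.3 and 28.5 CPM in the standard and at 718, 741 and 977 CPM in the low nuclease libraries (log2 fold change -5.53, SE 0.45, adjusted p = 0.0012). In the low nuclease libraries its counts were 97.3% to 97.7% alike with those of Ntn5, described above, which lies 137326 bp away, so that these may not be separate measurements. Grin2b, the subunit that prevails in the young forebrain, was at 33.3, 29.4 and 65.3 CPM against 222, 232 and 268 CPM (log2 fold change -2.50, SE 0.33, adjusted p = 0.0042). The calls of Grin2d and Grin2b held without any single library. Gria2, the AMPA receptor subunit that limits calcium entry, was at 38.0, 29.4 and 88.2 CPM against 111, 118 and 165 CPM. The groups of Gria2 did not overlap, but the fall was small beside its spread (log2 fold change -1.34, SE 0.43, adjusted p = 0.049), and the adjusted p was 0.16 without standard replicate 1. Of the channels, Cacna2d3, an auxiliary subunit of calcium channels, had overlapping libraries, with 18.6, 13.6 and 35.1 CPM in the standard and 143, 31.5 and 318 CPM in the low nuclease libraries (log2 fold change -2.87, SE 0.84, adjusted p = 0.038), and its adjusted p was 0.11 without standard replicate 1. Cacnb1, the cytosolic beta subunit of the same channels, was not called (log2 fold change 0.00, SE 0.10). Within the ER list, the lectin chaperones Calr and Canx fell by about the same amount. Calr was at 53.4, 50.6 and 119 CPM against 147.3, 146.4 and 219.5 CPM (log2 fold change -1.20, SE 0.38, adjusted p = 0.046), and without standard replicate 1 its adjusted p was 0.15 and that of Canx 0.16. The member that rose was Srp72, a cytosolic subunit of the signal recognition particle, which had a change of 0.49 (SE 0.091, adjusted p = 0.011). Hspg2, the heparan sulfate proteoglycan perlecan, had the largest change of the matrix list, with 3.12, 4.15 and 4.12 CPM against 352, 330 and 551 CPM (log2 fold change -6.76, SE 0.30, adjusted p = 0.00026). Ncan, a proteoglycan of the brain matrix, fell by 1.10 (adjusted p = 0.024, and 0.096 without standard replicate 1).

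**Figure D2:**
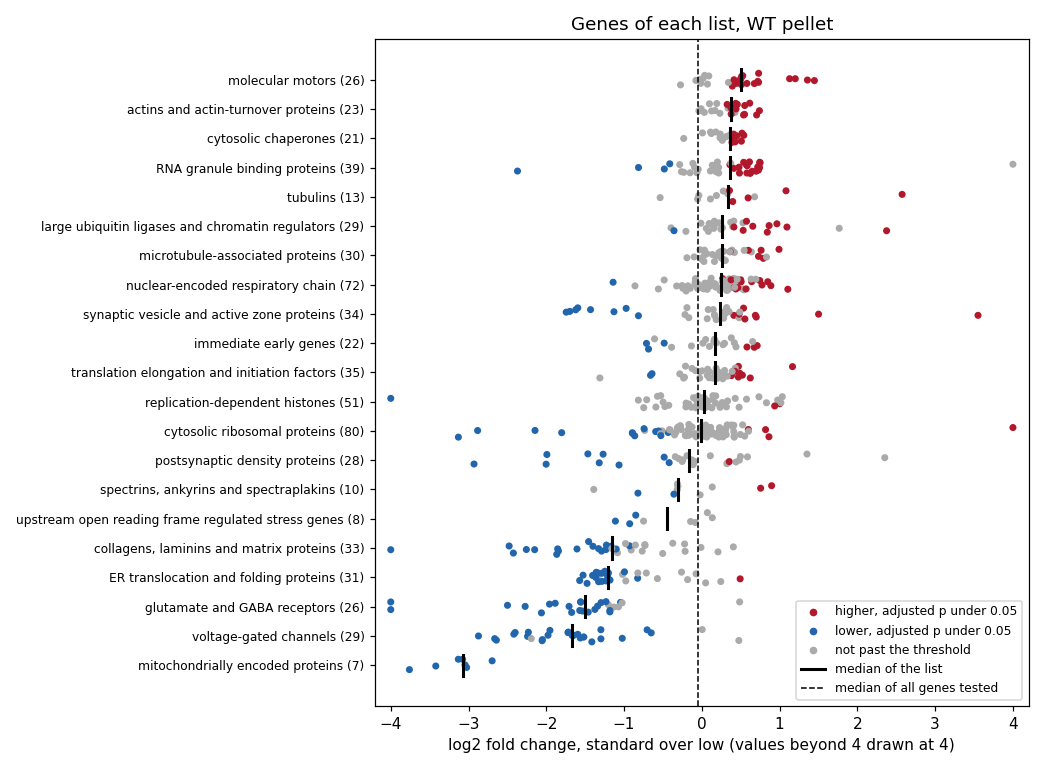
Log2 fold change (standard over low nuclease, values beyond 4 drawn at 4) of each gene, with one row of points per list and the number of genes tested in parentheses. The black bars are list medians and run from -3.08 for the mitochondrially encoded proteins to 0.50 for the molecular motors, and the dashed line is the median of all genes (-0.04); the medians of the motors and of the other cytoskeletal lists fall below 0 with library size alone.

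The lists of motors, actins and tubulins went the other way with TMM scaling, by smaller amounts, but with library size alone their medians lay below 0, though still above that of all genes. The spectrins, described below, did not, with a median of -0.31, and of -0.84 with library size alone. Of the molecular motors, 17 of 26 rose and 0 fell, where 15% of all genes tested rose, with a median of 0.50. Of the actins and actin-turnover proteins, 13 of 23 rose and 0 fell (median 0.38), of the tubulins 5 of 13 rose and 0 fell (median 0.33), and of the microtubule-associated proteins 6 of 30 (20%) rose and 0 fell (median 0.26), a share near that of all genes. With library size alone, the medians were -0.03 for the motors, -0.15 for the actins, -0.19 for the tubulins and -0.26 for the microtubule-associated proteins, beside -0.57 for all genes. Of the 26 motors, 4 were then called higher and 8 lower, beside 294 higher and 7161 lower of all 14557 genes. That is a larger share higher and a smaller share lower than among all genes. Among RNA granule binding proteins, 18 of 39 rose and 4 fell (median 0.36), and among cytosolic chaperones 8 of 21 rose and 0 fell (median 0.37). With library size alone these lists had 0 higher, and 14 of 39 and 3 of 21 lower, with medians of -0.16. These shares of lower genes were below that of all genes with the same scaling. Without standard replicate 1, low replicate 1 and low replicate 3, the motors that rose were 6, 8 and 9, the RNA granule binding proteins 6, 6 and 7, the actins 4, 5 and 5, the tubulins 2, 1 and 2 and the chaperones 0, 0 and 1. Without standard replicate 2 the actins were 6 and the chaperones 2, and without standard replicate 3 the chaperones were 4. The microtubule-associated proteins that rose were 3, 4 and 4 without standard replicate 1, low replicate 1 and low replicate 3.

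Dync1h1, the heavy chain of cytoplasmic dynein, was at 1567, 1128 and 1869 CPM in the standard and at 552, 566 and 556 CPM in the low nuclease libraries (log2 fold change 1.45, SE 0.21, adjusted p = 0.0055). Kif5a, a neuronal kinesin heavy chain, was at 1517, 1347 and 1717 CPM against 704, 749 and 643 CPM (log2 fold change 1.13, SE 0.15, adjusted p = 0.0047). In both the standard libraries were all higher, and both held without any single library, while Kif1a, a kinesin of synaptic vesicle precursors, was not called (log2 fold change 0.02). Among the binding proteins of granules, Hnrnpa2b1, which carries mRNAs with a transport element, was at 936, 946 and 842 CPM against 534, 608 and 502 CPM (log2 fold change 0.73, SE 0.13, adjusted p = 0.010). The nuclear matrix proteins Hnrnpu and Matr3 rose by 0.58 and 0.75, and without standard replicate 1 their adjusted p was 0.092 and 0.069. Fmr1, whose product FMRP binds stalled polysomes, was at 83.5, 74.0 and 83.5 CPM against 51.0, 54.4 and 51.2 CPM (log2 fold change 0.62, SE 0.086, adjusted p = 0.0049), with all standard libraries above all others. The members that fell in that list included Purb and Pura, single-stranded nucleic acid binding proteins of granules, which were picked after their values were seen and changed by -0.81 (adjusted p = 0.0056) and -0.41 (adjusted p = 0.023). The most abundant tubulins and actins were not called. Tubb5 was at 7683, 7079 and 6705 CPM against 7145, 5705 and 4882 CPM (log2 fold change 0.28, adjusted p = 0.37), and Actb changed by -0.04 (adjusted p = 0.90). Tuba8, a minor alpha tubulin picked after its values were seen, was at 22.6, 31.3 and 28.4 CPM against 4.36, 4.58 and 4.84 CPM (log2 fold change 2.57, SE 0.15, adjusted p = 0.00052). Map1b, the microtubule-associated protein with the largest share of the counts, was at 12257, 10370 and 13369 CPM against 7439, 8559 and 7149 CPM, without overlap, but did not pass the test (log2 fold change 0.64, SE 0.23, adjusted p = 0.072).

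**Figure D3:**
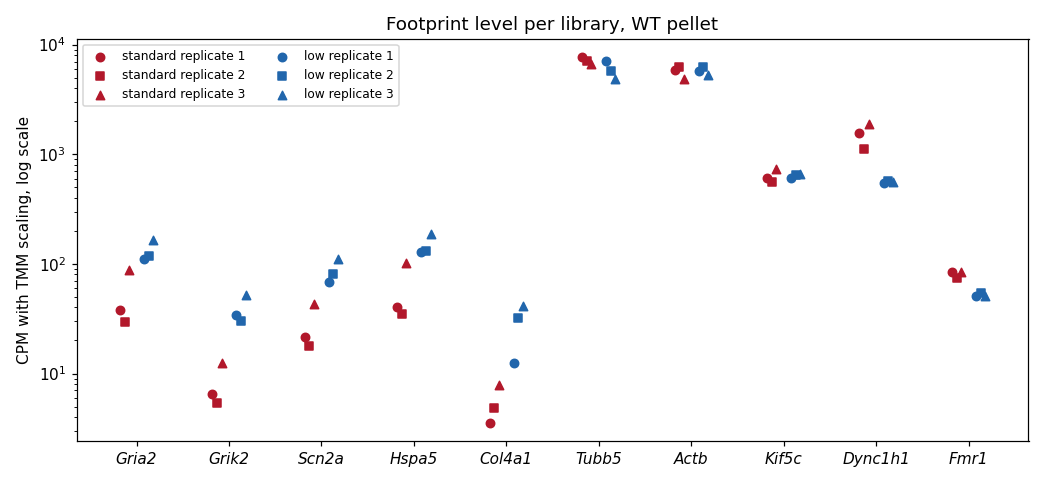
CPM (log axis) in each WT pellet library for 10 genes, in red for standard and blue for low nuclease, with the marker shape giving the replicate; Grik2, Scn2a, Hspa5, Col4a1 and Kif5c were added after their values were seen. The red points of Gria2, Grik2, Scn2a, Hspa5 and Col4a1 lie below the blue ones, with replicate 3 the highest of the red, and those of Dync1h1 and Fmr1 lie above.

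The remaining lists divided between these patterns. Synaptic vesicle and active zone proteins split evenly, with 8 of 34 higher and 8 lower (median 0.23), which is 23.5% in each direction, where 15% of all genes were higher and 24% lower. Without standard replicate 1, standard replicate 2, low replicate 1 and low replicate 3 the lower ones were 2, 2, 4 and 2, and without standard replicate 1, low replicate 1 and low replicate 3 the higher ones were 4, 4 and 5. Ap2a1, a subunit of the clathrin adaptor, was at 9592, 2395 and 3937 CPM in the standard and at 448, 460 and 452 CPM in the low nuclease libraries (log2 fold change 3.55, SE 0.55, adjusted p = 0.0066). The vesicle membrane proteins Syt1, Sv2a and Syp, picked after their values were seen, fell by 1.62, 1.59 and 1.43 (adjusted p = 0.021, 0.021 and 0.027). Of the postsynaptic density proteins, 1 of 28 rose and 9 fell (median -0.16), and 5 were called lower without standard replicate 1. Spectrins, ankyrins and spectraplakins had 2 of 10 higher and 2 lower (median -0.31), and the higher ones included Sptan1 and Sptbn1, the chains of brain spectrin, at 0.90 (adjusted p = 0.020, and 0.066 without standard replicate 1) and 0.76 (adjusted p = 0.012). Large ubiquitin ligases and chromatin regulators had 9 of 29 higher and 1 lower (median 0.26), with 4 or 5 higher when standard replicate 1, low replicate 1 or low replicate 3 was left out. Its most abundant member, Ubr4, a ligase of the N-degron pathway, was at 4403, 1340 and 894 CPM against 389, 453 and 437 CPM (log2 fold change 2.38, adjusted p = 0.026, and 0.080 without low replicate 1). Translation elongation and initiation factors had 8 of 35 higher and 2 lower (median 0.16), immediate early genes 3 of 22 in each direction (median 0.17), replication-dependent histones 2 of 51 higher and 1 lower (median 0.03), and stress genes with upstream open reading frames 3 of 8 lower (median -0.45). Without standard replicate 1 the translation factors had 2 higher, the immediate early genes 1 in each direction, the histones 0 higher and the spectrin list 1 higher and 0 lower. The histones had 6 lower without standard replicate 2 and 5 higher without standard replicate 3.

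Of the machinery of translation and respiration, the genes of the mitochondrial genome fell. Cytosolic ribosomal proteins had a median of -0.01, with 4 of 80 (5%) higher and 12 (15%) lower, shares below the 15% and 24% of all genes. Without standard replicate 3 the higher ones were 19, while they were 1 without each other library. The lower ones were 5 without standard replicate 1 and 5 without low replicate 1. Rpl22 was carried by 2 libraries, at 1528 and 1345 CPM in standard replicates 1 and 2 but 7.81 CPM in replicate 3, against 25.7 to 35.4 CPM (log2 fold change 4.92, adjusted p = 0.049, and 0.127 without low replicate 2), and its libraries overlapped. Rpl13, picked after its values were seen, was lower, at 20.1, 26.9 and 20.2 CPM against 215, 247 and 125 CPM (log2 fold change -3.13, SE 0.29, adjusted p = 0.0016). Nuclear-encoded respiratory chain genes had 15 of 72 (20.8%) higher and 1 (1.39%) lower (median 0.24), beside 15% and 24% of all genes. They had 3, 8, 7, 6 and 3 higher without standard replicates 1 and 2 and low replicates 1, 2 and 3. All 7 mitochondrially encoded genes tested fell (median -3.08), out of 13 listed, at low levels. The mt-Co1 gene, for a core subunit of cytochrome oxidase, was at 0.231, 0.901 and 0.434 CPM against 3.34, 7.77 and 4.82 CPM (log2 fold change -3.42, adjusted p = 0.0073). These mRNAs are read by mitochondrial ribosomes, and they took 0.000178% of the counts in the standard and 0.00211% in the low nuclease preparation.

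Markers of cell types were counted in the same way, beside 15% of all genes higher and 24% lower, and the shares of neuronal, oligodendrocyte and blood markers that were lower (22.2%, 27.3% and 20%) lay near the latter. The neuronal markers, whose summed level was 7498 to 8441 CPM in the standard and 5795 to 6833 CPM in the low nuclease libraries, had 2 of 9 higher and 2 lower (median 0.32), and among them Stmn2, a tubulin-binding protein of growing axons, rose by 0.76 (adjusted p = 0.015, and 0.057 without standard replicate 1). Of the endothelial and mural markers, 6 of 8 fell (median -1.94), with a summed level of 24.5 to 25.8 CPM against 47.5 to 84.7 CPM, and 6 of the 8 encode proteins with 2 or more hydrophobic segments, a measure described below. Astrocyte and radial glia markers had 3 of 9 higher and 1 lower (median -0.17). Fabp7, a cytosolic lipid-binding protein of radial glia, rose by 0.99 (adjusted p = 0.014), and Slc1a2, the membrane glutamate transporter of astrocytes, was at 59.7, 54.2 and 119 CPM against 756, 575 and 678 CPM (log2 fold change -3.11, SE 0.35, adjusted p = 0.0029). Among oligodendrocyte lineage markers 1 of 11 rose and 3 fell (median -1.01), among microglia 0 of 9 rose and 3 fell (median -0.13), among blood markers 1 of 5 fell (median -0.47), among choroid plexus and ependyma 2 of 5 fell (median -1.03), and among proliferating cells 3 of 7 rose (median 0.37), and 1 was called higher without standard replicate 1, low replicate 1 or low replicate 3. Without standard replicate 1 no neuronal or choroid plexus marker was called and 1 microglial marker was, while 4 endothelial markers were called lower. All defining neuronal markers were detected. The part of these cell types in the changes of the other lists was not tested.

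The pattern of the lists was then described over all genes by a property of the encoded protein. A hydrophobic segment was counted where the mean Kyte-Doolittle hydropathy of 19 residues reached 1.6, as in membrane-spanning helices and many signal peptides. The sequences shown are the middle of the most hydrophobic window of 3 genes that fell and 3 that rose, chosen after their values were seen, to show what the measure reads in the coding strand (GENCODE M21 on GRCm38). Capitals mark codons with T in the middle, which encode the hydrophobic residues Phe, Leu, Ile, Met and Val. Gria2 (chr3:80681450-80802835, minus strand) has a window mean of 2.66. The signal peptide region of Calr (chr8:84841850-84846934, minus strand) reaches 1.8 and that of Col4a1 (chr8:11198423-11312826, minus strand) 1.66.
Gria2, codons 550 to 559: ATTGTGTTTgcctacATTgggGTCagtGTA
Calr, codons 7 to 16: CTCCTGCTTggcCTCCTCggcCTGgccgcc
Col4a1, codons 5 to 14: CTCagcGTCtggCTTCTGCTGCTCTTCgcc
Dync1h1 (chr12:110601452-110666945, plus strand), codons 2650 to 2659: cctGTTcagCTTggaaagtggCTGGTCTTG
Kif5a (chr10:127225696-127263348, minus strand), codons 551 to 560: CTGaatgggCTGATGagggacCTGagtgag
Hnrnpa2b1 (chr6:51460932-51469894, minus strand), codons 67 to 76: GTAactTTCtcatccATGgccgagGTTgac
The windows hold 6, 6 and 7 such codons of the 10 shown in the genes that fell and 5, 4 and 4 in those that rose, where no window reached 1.6.

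The change fell with the number of segments. The 9346 genes without a segment had a median of 0.10, with 18.8% called higher and 12.5% lower. Genes with 1 segment had a median of -0.38 (n = 2570), those with 2 to 3 of -1.04 (n = 1284), those with 4 to 6 of -1.31 (n = 659) and those with 7 or more of -1.37 (n = 506). Genes with a single segment differed by its place. The 768 genes whose only segment began within the first 22 residues had a median of -1.11 and 52.5% were lower, while the 1802 in which it began later had a median of -0.12 and 27.1% were lower. Over all 2449 genes with 2 or more segments, 6.00% were higher and 56.6% (1386 genes) lower, with a median of -1.21 and quartiles of -1.63 and -0.46. These genes took 9.62%, 6.06% and 8.76% of the tested counts in the standard libraries and 12.4%, 14.3% and 16.5% in the low nuclease libraries (8.14% ± 1.86 against 14.4% ± 2.07, SD, n = 3 each, exact permutation p = 0.1), so the groups did not overlap. Across 14365 genes the number of segments and the change had a Spearman correlation of -0.42, and the genes shared the same 6 libraries.

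**Figure D4:**
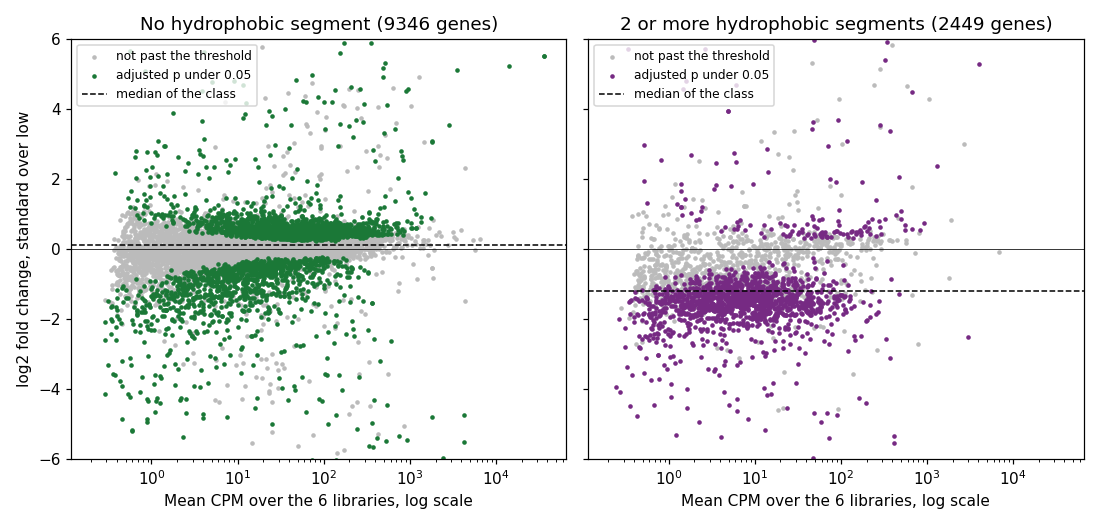
Log2 fold change (standard over low nuclease) of each gene against its mean CPM over the 6 libraries (log axis), for genes whose protein has no hydrophobic segment (9346) and for those with 2 or more (2449), with called genes in colour and values beyond 6 not drawn. The dashed line is the median of the class, at 0.10 on the left and -1.21 on the right, and the highest levels on the right spread around 0.

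The level of expression moved with this pattern. Among genes with 2 or more segments, the median was -1.26, -1.28, -1.25 and -1.20 in the first 4 quintiles of mean CPM over all genes but -0.00 in the highest quintile (n = 295, quartiles -1.37 and 0.44), where 70 were higher and 89 lower. The most abundant of those that rose, listed by level after the values were known, included Adra2c, an adrenergic receptor, at 11276, 6406 and 6193 CPM against 251, 199 and 164 CPM (log2 fold change 5.28), and Sftpc, lung surfactant protein C, at 920, 1046 and 1924 CPM against 91.5, 42.0 and 41.4 CPM (log2 fold change 4.47). Large cytosolic proteins were also found there, among them Birc6, Hectd4 and the dynactin subunit Dctn1, at 0.53, 0.75 and 0.67. Of those that fell, Fgfr2, a growth factor receptor, was at 852, 842 and 1031 CPM against 5424, 5292 and 4861 CPM (log2 fold change -2.52, SE 0.18, adjusted p = 0.00086), and the cell adhesion molecule Ncam1 changed by -1.301 (adjusted p = 0.034). In genes without a segment the median rose from -0.19 in the lowest to 0.25 in the highest quintile.

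Other properties of the transcript were related to the change less closely. From the shortest to the longest quintile of 3′UTR length, the median went from 0.05 to -0.27 and the share that was lower from 17.1% to 37.2%. Among genes without a segment it went from 0.13 to -0.04, and among those with 2 or more from -0.97 to -1.42. GC content of the coding sequence gave 0.15 in the lowest and -0.28 in the highest quintile. From the shortest to the longest coding sequence the median was -0.10 to 0.02, and within the genes with 2 or more segments the longest quintile stood apart, at -0.71 against -1.13 in the shortest. As Spearman correlations across 14365 genes these were -0.15 for 3′UTR length, -0.20 for GC content, -0.11 for 5′UTR length and 0.04 for coding length.

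Peaks were deposited for the standard libraries used here, and they were more often found in genes that rose. A peak in all 3 standard libraries was present in 39.2% of the genes called higher, in 8.16% of those called lower and in 20.7% of all genes. It was present in 26.0% of genes without a segment and in 6.86% of those with 2 or more. Of the 12 largest rises named by rule, 1 (8.33%) had such a peak, and of the 12 largest falls 0. The rise with such a peak was Pou3f2, whose tallest peaks were 46, 34 and 25 in standard replicates 1, 2 and 3. Peaks were called on coverage of the standard libraries themselves, so these shares are not independent of the changes. The peaks of Tubb5 and Actb are shown because they stand among the tallest ones on coding sequence in all 3 standard libraries. Capitals mark the codon at the middle of the peak, in GENCODE M21 transcripts.
Tubb5 (chr17:35833921-35838306, minus strand), codon 413 of 444: ttcaccgaagctgagAGCaacatgaacgac
Actb (chr5:142903115-142906754, minus strand), codon 369 of 375: gagtccggcccctccATCgtgcaccgcaag
Their heights in standard replicates 1, 2 and 3 were 4638, 2549 and 2194 for Tubb5 and 3434, 2002 and 1560 for Actb, as deposited and not scaled for depth. The 193 genes with more than 2 reads per base of their length in any of the 6 libraries held 39.5%, 39.7% and 42.8% of the counts without Cdk8 in the standard and 21.7%, 24.7% and 25.3% in the low nuclease libraries. A gene could enter this group through the preparation where it was high, so that these shares are partly fixed by the choice.

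The same contrast was available in libraries that were not used for the WT pellet. In the pellet of FMR1 KO mice, 2464 of 14535 genes (17%) were called, and 1922 of them were called in the same direction in the WT pellet, which is 33.8% of the WT calls and 78.0% of the KO calls. Of the WT calls, 97.1% had the same sign in the KO pellet, beside 83.9% of all genes tested in both, and across 14339 genes the changes had a Spearman correlation of 0.80. The interaction of genotype and preparation was called for 2 of 15035 genes (0.0133%) with edgeR, while 965 had an unadjusted p under 0.05. In fraction 5/6 of WT mice, 1420 genes (9.69%) were called, 1167 of them in the same direction as in the pellet (20.5% of the pellet calls and 82.2% of those in fraction 5/6), and 9 genes (0.0595%) had an interaction, with 1269 at an unadjusted p under 0.05. One of those libraries, labelled standard replicate 3, had Fmr1 at 0.00017% of its counts, below the standard KO pellets (0.000175% to 0.000259%) and the low nuclease KO pellets (0.000667% to 0.000781%). The other standard WT libraries of fraction 5/6 had 0.00501% and 0.0028%, so that by this gene the library goes against its WT label, which may be wrong. Its share of Map1b was 0.557%, against 0.0647% and 0.0411% in those libraries and 0.528% to 0.562% in the standard WT pellets. The standard KO pellets had Map1b at 0.487%, 0.186% and 0.587%. In the standard KO libraries of fraction 5/6, Map1b was at 0.0638% to 0.148% and Fmr1 at 0.000282% to 0.00068%. Without it, 44 genes had an interaction, with the pellet change above for 0.0714% and below for 0.214% of the genes tested. In the KO pellet the receptors had a median of -1.003 (6 of 26 lower, where 9.53% of all genes were lower), the channels of -1.27 (12 of 29 lower, 1 higher) and the ER list of -0.66 (1 of 31 lower, a share below that of all genes). The matrix list had a median of -0.48 (2 of 33 higher and 1 lower), and the motors had a median of 0.31 (6 of 26 higher, where 7.42% of all genes were higher). In fraction 5/6 the receptors had 11 lower and 1 higher (median -0.91), the channels 8 lower (median -1.14) and the ER list 7 lower (median -0.52), and the matrix list 2 higher and 1 lower (median -0.17), where 6.76% of all genes were lower and 2.94% higher. The motors had none called and a median of 0.47. Without the library labelled standard replicate 3, 18 receptors, 11 channels and 13 ER genes were lower and 1 receptor and 1 ER gene higher, where 8.26% of all genes were lower and 5.25% higher, and the medians were -1.24, -1.37 and -1.003. The matrix list then had 8 lower and 2 higher (median -0.79), and the motors had none called and a median of 0.20.

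RNA of whole brain homogenate also differed between the preparations. In WT, 6154 of 16317 genes (37.7%) were called, and the change in the pellet differed from that in RNA for 4310 genes (26.6%), above it for 1119 (6.9%) and below it for 3191 (19.7%). In RNA low replicate 2, Cmss1 and Filip1l each took 25.2% of the counts and Cdk8 9.22%, and without it 7562 genes (46.2%) were called, with an interaction for 4771, above for 7.65% and below for 21.4%. The values of lists and genes in RNA given here are without this library. Among the motors the pellet change was above that in RNA for 11 and below it for 0, and among the receptors above it for 1 and below it for 3. Across 14503 genes the changes in RNA and in the pellet had a Spearman correlation of 0.42. Receptors, channels, ER genes and matrix genes were also lower in RNA, with medians of -1.80, -1.62, -1.301 and -2.57, and 21, 24, 20 and 33 members called lower, where 23.4% of all genes in RNA were lower. For the matrix genes the pellet change was above that in RNA for 16 of 33 and below it for 1, with a median difference of 1.40. The motors went the opposite way in RNA, with a median of -0.46 and 13 of 26 called lower, and cytosolic ribosomal proteins, with little change in RPFs, rose in RNA (median 1.53, 70 of 80 higher, where 22.8% of all genes were higher). By class, genes with 2 or more segments had a pellet change below that in RNA by a median of -0.06, against -0.27 over all genes tested for the interaction.

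**Figure D5:**
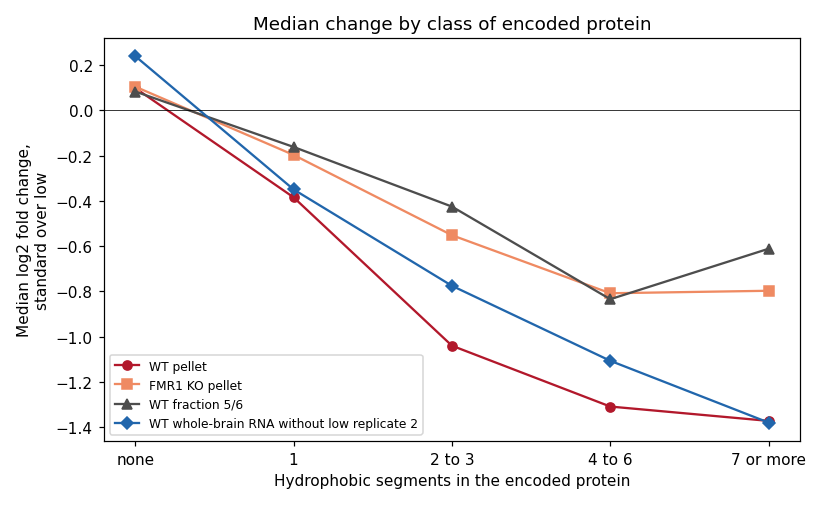
Median log2 fold change (standard over low nuclease) of genes by the number of hydrophobic segments in the encoded protein, for the WT pellet, the FMR1 KO pellet, WT fraction 5/6 with all its libraries, and WT whole-brain RNA without low replicate 2. The WT pellet runs from 0.10 to -1.37, and the other 3 lines also start above 0 and lie below it from 1 segment on. Without the library labelled standard replicate 3, the medians of fraction 5/6 were 0.09, -0.23, -0.63, -1.02 and -1.07.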

How the data were processed

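RPF counts per gene were used as the authors deposited them, as whole counts without normalization. The authors trimmed reads with Cutadapt 2.10, removed ribosomal and non-coding RNA with Bowtie2 2.3.5, aligned to GRCm38 with STAR 2.7.8a, removed duplicates with Picard and SAMtools 1.19.2 and counted with featureCounts 2.2.0. Peak heights are a coverage signal that the authors called per sample on Ensembl 102 transcripts, as deposited. All 36 count columns matched a label.

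Protein-coding genes (GENCODE M21) without Cdk8 were filtered with filterByExpr and tested with edgeR 4.0.16 in R 4.3.3. Of 16614 genes in the table, 26 were non-coding and 20 were not in the annotation. Permutation tests used scipy 1.17.1, tables pandas 2.3.3 with numpy 2.4.6 (Python 3.11.15), and figures matplotlib 3.10.9. Alternatives used DESeq2 1.42.0, limma 3.58.1 and other settings (closing section). Intervals of the data are the SD over libraries or, for a log2 fold change, the SE implied by edgeR's quasi-likelihood F statistic. In data simulated at this depth, 11% of 100 genes changed 2-fold and 87.9% of 99 genes changed 4-fold were recovered among 14470 genes. Far fewer genes changed there than were called here, and the adjusted p depends on that number. These shares therefore do not give the recovery in this comparison.

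Members and lists were chosen with earlier results of these data known. Genes were named by a rule: the 12 largest shares, the 12 largest rises and 12 largest falls (called, mean of at least 20 CPM, no overlap), the 3 most abundant members of each list, and Fmr1, and other genes are said to have been picked after their values were seen. Fragment lengths were not analysed here, and some genes that the rule names are not reported here.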

Additional observations from a re-analysis of the deposited data

Results flagged for a closer look

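The change between the preparations differed between the WT pellet and the FMR1 KO pellet for 2 genes, by the interaction term in edgeR (log2 units, WT pellet minus the other, adjusted p over all genes). These were Ankrd6, at -3.74 (adjusted p = 0.00013, with changes of -4.35 in the WT and -0.58 in the KO pellet), and Ppil1, a peptidyl-prolyl isomerase, at -3.11 (adjusted p = 0.021, with changes of 0.26 and 3.40).

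It differed between the WT pellet and WT fraction 5/6 for 9 genes, and 8 of them are given. With a fall in fraction 5/6 and little change in the pellet, Fblim1, a filamin-binding protein, was at 4.31 and Wdr59 at 4.61. With a rise in fraction 5/6, Hmx2 was at -10.15 and Bub3, a spindle checkpoint protein, at -2.83. Genes that fell more in the pellet were Pamr1 at -4.72, Grin2d at -5.10 and Itga6, an integrin, at -4.48. Grin2d changed by -5.53 in the pellet and by -0.30 in fraction 5/6. Exph5, at 3.50, rose by 2.54 in the pellet and changed by -0.82 in fraction 5/6. These values include the fraction 5/6 library labelled standard replicate 3, whose Fmr1 share goes against its WT label.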

How the results depend on the processing

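The direction of the 71 called genes named in the text did not change when each library was left out in turn, and 41 of them kept their call in all 6 of these fits. The number of genes called ranged from 2441 to 5927, with 902 to 2381 higher and 1539 to 3546 lower. It was 6693 with DESeq2, 5589 with limma-voom, 5925 with RLE factors, 5439 without a filter and 4840 with at least 100 counts. Library size alone gave 294 higher and 7161 lower genes, 5 interactions with the KO pellet and 1021 with RNA. It also reversed Uqcrc1 (-0.43), Kif1a (-0.51), Eef1a2 (-0.033), Srp72 (-0.031), Cacnb1 (-0.51), Camk2b (-0.42), Huwe1 (-0.37), Aldoc (-0.00798), Cnp (-0.12), Cx3cr1 (-0.46) and Mki67 (-0.032), where the shift of all genes was -0.52. Without the fraction 5/6 library labelled standard replicate 3, 44 interactions were called.

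Medians of lists relative to all genes ranged, without each library, from -3.42 to -2.69 for mitochondrially encoded genes, -0.37 to -0.14 for spectrins, -2.12 to -1.42 for channels, -0.23 to -0.024 for postsynaptic density, -1.51 to -0.85 for matrix, 0.16 to 0.53 for ubiquitin ligases and chromatin regulators, 0.28 to 0.44 for neurons, -1.29 to -0.44 for oligodendrocytes, -0.41 to 0.12 for microglia, -0.84 to -0.16 for blood, -1.33 to -0.49 for choroid plexus and -1.42 to -1.0 for genes with 2 or more segments. The tubulins were at 0.72 when genes above 2 reads per base were left out, a setting added after seeing the data. Replicate numbers did not pair the libraries (correlations of deviations of -0.00, 0.04 and 0.16). With a replicate block 4979 genes were called, 1588 higher and 3391 lower, and 4610 of them were also called without it, and the choroid plexus list was at -0.81. The causes of these moves were not tested. Depth without Cdk8 was lower in the standard libraries, where 3 counts correspond to 0.173 to 0.325 CPM against 0.0613 to 0.105 CPM, which limits falls of scarce genes.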
